A study of Mus musculus with 12 samples.

Results

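The mitochondrial genome transcripts are the 37 genes of the mouse mitochondrial chromosome, taken as every row of the deposited count table whose Ensembl gene ID carries a symbol starting with mt-. They are 37 of 52550 gene IDs in the table and comprise 13 protein-coding genes, 2 ribosomal RNAs (rRNAs) and 22 transfer RNAs (tRNAs). They were followed in 12 RNA-seq libraries of mouse adipose tissue, 3 in each of 4 groups: BAT AKO, BAT control, WAT AKO and WAT control. BAT is brown adipose tissue and WAT is inguinal white adipose tissue. AKO animals were Mcu fl/fl AKO, described by the submitters as an Mcu knockout in adipose tissue, and controls were Mcu fl/fl without AKO. Mcu encodes the pore of the mitochondrial calcium uniporter. By the sample titles, all 4 groups carried the floxed Mcu alleles. The deposited column names call the controls WT, and the titles were followed. All 4 groups were kept on a high-fat diet. No label names the Cre driver, the exon removed, the strain, the age or the sex. The libraries are numbered as replicates, and nothing says that each came from a separate animal; the p-values then reflect only the spread from library to library, which may be technical.

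Mitochondria keep a small circular chromosome of their own, transcribed from both strands into long precursors by the polymerase Polrmt with the factors Tfam and Tfb2m. The tRNAs lie between the other genes and are cut out by RNase P and Elac2, which releases the mRNAs and rRNAs. The 13 protein-coding genes encode core subunits of respiratory complexes I, III, IV and V. Their mRNAs are translated inside the organelle with the 2 rRNAs and 22 tRNAs. Brown fat is rich in mitochondria, whose inner membrane carries Ucp1 for heat production, while white fat stores lipid and holds fewer mitochondria.

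Libraries held 15692588 to 18967159 counts. Mcu averaged 10.8 ± 3.33 CPM (counts relative to library size, scaled by the trimmed mean of M-values, TMM) in BAT AKO and 26.5 ± 2.42 CPM in BAT control (SD, n = 3 each). In WAT it averaged 11.2 ± 1.21 CPM in AKO and 18.5 ± 0.454 CPM in control, and every AKO library was below every control of its tissue. By edgeR's quasi-likelihood test the Mcu log2 fold change of -1.27 in BAT had an SE of 0.222 and an adjusted p of 0.202, and that of -0.75 in WAT had an SE of 0.127 and an adjusted p of 0.0799, neither under the threshold of 0.05. Ucp1 was at 3687 to 5086 CPM in BAT libraries and at 0 to 11.0 CPM in WAT libraries, and Adipoq was detected in all 12. Markers of skeletal muscle took 1.84% of the counts of BAT AKO replicate 2, 2.40% of WAT AKO replicate 2, 1.35% of WAT control replicate 1, 0.340% of WAT control replicate 2 and 0.193% of BAT control replicate 1, and at most 0.0549% of the others.

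The tRNAs were almost absent from the counts, with a single exception that lies beside an uncounted one. Of the 22 tRNAs, 21 were at 0 in all 12 libraries, which at this depth allows up to 3 counts in a library and covers counting error only. The exception was mt-Tp, the tRNA for proline, with 20861 counts in all. It lies on the minus strand at chrM:15356-15422 of GRCm38, directly beside mt-Tt, the threonine tRNA at chrM:15289-15355 on the plus strand. Both are 67 bases long and are printed from the GENCODE M21 transcripts, 5′ to 3′ and without capitals, because they abut and are counted so unequally.
mt-Tp: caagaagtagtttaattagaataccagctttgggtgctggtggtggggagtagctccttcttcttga
mt-Tt: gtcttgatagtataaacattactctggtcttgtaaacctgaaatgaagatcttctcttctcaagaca
mt-Tp borders the non-coding control region, and so does mt-Tf, the phenylalanine tRNA at chrM:1-68 on the plus strand, which follows that region on the circle and was at 0. Of the 22 tRNAs, 18 had an annotated gene within 5 bases on both sides, and mt-Tn and mt-Tc flank the largest gap between annotated genes, of 32 bases. The labels give the molecule as polyA RNA. Whether this or the layout has a part in the zero counts was not tested. Whether the mt-Tp counts come from the mature tRNA was not tested either.

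A second set of sequences bears on the coding genes. A block at chr1:24611535-24616197 of the nuclear genome, on the minus strand, holds 7 annotated pseudogenes that match M:6390-11042 in the same order and, in all but 1 of 6 steps between neighbours, with the same spacing to the base. Gm28661 matches mt-Co2 over 681 bases, Gm10925 matches mt-Atp6 over 678, Gm28437 matches mt-Co3 over 783 and Gm10222 matches mt-Nd4l over 294, all without a mismatch. Gm28438 matches mt-Nd3 over 345 bases with the single difference T3C (member base first, positions counted from base 1 of the gene). Of the genes at the ends of the stretch, mt-Nd4 shares its first 876 bases with Gm28439, and mt-Co1 shares its last 483 with Gm29216. The difference A1066T is the only one in those 483 bases. A further pseudogene on chromosome 2, Gm13340, spans all of mt-Co1 at 97.6% identity. The first 210 bases shared by all 3 are shown because they contain that single base: capitals mark, in mt-Co1, the base that differs from Gm29216, and in each copy the bases that differ from mt-Co1.
mt-Co1: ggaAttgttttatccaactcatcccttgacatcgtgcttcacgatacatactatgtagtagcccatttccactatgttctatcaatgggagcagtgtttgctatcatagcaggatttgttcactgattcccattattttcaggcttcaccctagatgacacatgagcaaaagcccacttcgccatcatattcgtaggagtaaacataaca
Gm29216: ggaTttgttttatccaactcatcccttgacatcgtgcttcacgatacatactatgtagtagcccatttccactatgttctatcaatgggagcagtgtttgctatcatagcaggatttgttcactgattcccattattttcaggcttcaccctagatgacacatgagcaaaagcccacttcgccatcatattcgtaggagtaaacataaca
Gm13340: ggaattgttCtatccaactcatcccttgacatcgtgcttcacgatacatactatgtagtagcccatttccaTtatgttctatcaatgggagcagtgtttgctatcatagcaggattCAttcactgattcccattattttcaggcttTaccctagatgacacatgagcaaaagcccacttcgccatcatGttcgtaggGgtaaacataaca
Gm29216 differs from mt-Co1 at 1 base of this window and Gm13340 at 7. A read from the rest of the Gm29216 stretch cannot be assigned by sequence to either locus, and no source used here says how such reads were counted. Counts of mt-Co2, mt-Atp6, mt-Co3, mt-Nd3 and mt-Nd4l, the genes copied almost whole, are therefore uncertain throughout. Those of mt-Nd4 and mt-Co1 are uncertain over the bases they share with a copy. mt-Atp8 lies between mt-Co2 and mt-Atp6, whose copied bases start 914 apart on both chromosomes. Only annotated transcripts were searched, so the chromosome 1 sequence at most of mt-Atp8 was not read, and its counts may be uncertain too.

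Within the mitochondrial genome the coding genes fell into 2 ranges of level per length, and all 6 of the lower range lie inside that stretch. On the FPKM scale, which divides counts by gene length and library total, mt-Co1, a core subunit of cytochrome c oxidase (complex IV), was highest, at 44467 ± 1610 in BAT AKO, 40874 ± 487 in BAT control, 8969 ± 1104 in WAT AKO and 9176 ± 1014 in WAT control (SD, n = 3 each). mt-Cytb, the cytochrome b of complex III, followed at 35110 ± 1673 in BAT AKO, 34485 ± 1328 in BAT control, 5442 ± 532 in WAT AKO and 5085 ± 696 in WAT control. mt-Co1 had the most counts of any gene in all 6 BAT libraries and was second in all 6 WAT libraries. Set against mt-Cytb per base, the 7 coding genes that lie outside the stretch or only partly in it ranged from 11.6% (mt-Nd6 in BAT control) to 181% (mt-Co1 in WAT control) as group means. The 6 inside it ranged from 0.00952% (mt-Atp8 in BAT control) to 2.33% (mt-Co2 in BAT control), and the 2 rRNAs from 2.45% to 7.60%.

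The low genes belong to 3 complexes. mt-Co2, which carries the copper centre that accepts electrons from cytochrome c, was at 1.67 ± 0.171% of mt-Cytb per base in BAT AKO, 2.33 ± 0.984% in BAT control, 1.43 ± 0.362% in WAT AKO and 1.30 ± 0.0200% in WAT control. mt-Co3, also of complex IV, and mt-Atp6, the proton-channel subunit of ATP synthase (complex V), had group means of 0.642% to 1.12% and 0.532% to 1.03%. mt-Nd3 and mt-Nd4l, membrane subunits of complex I, were at 0.0937% to 0.119% and 0.0698% to 0.122%. Adding the counts of the matching chromosome 1 copy brought mt-Co2 to at most 5.37% as a group mean (BAT control), mt-Atp6 to 3.56% (BAT AKO) and mt-Co3 to 2.30% (BAT control). These sums were below mt-Nd6, the lowest coding gene outside the stretch. Reads that match both loci may have been counted at neither, so the sums cannot show the true level of these genes. With its copy, mt-Co2 in BAT control was above mt-Rnr1 (4.01%) and mt-Rnr2 (3.46%) of that group. The copies of the 5 genes copied almost whole had 48.6 (Gm28661 for mt-Co2 in WAT AKO) to 549 counts (Gm28438 for mt-Nd3 in BAT AKO) per 100 of the matching gene as group means. The partial copies had far fewer, 0.134 to 0.462 per 100 for Gm29216 against mt-Co1 and 0.461 to 1.21 per 100 for Gm28439 against mt-Nd4. Per 100 counts of mt-Co2, Gm28661 had 105 in BAT AKO, 129 in BAT control, 48.6 in WAT AKO and 58.9 in WAT control.

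mt-Atp8, a small subunit of ATP synthase, was the lowest counted gene, with 8 to 21 counts in BAT AKO libraries, 5 to 16 in BAT control, 2 to 5 in WAT AKO and 2 or 3 in WAT control. Its last 43 bases are also the first of mt-Atp6, in another reading frame, and the same 43 are in Gm10925. Whether its other bases have a copy in the chromosome 1 block was not read, since only annotated transcripts were searched. The junction, chrM:7897-7999 on the plus strand, is shown with the bases annotated in both genes in capitals.
mt-Atp8 end and mt-Atp6 start: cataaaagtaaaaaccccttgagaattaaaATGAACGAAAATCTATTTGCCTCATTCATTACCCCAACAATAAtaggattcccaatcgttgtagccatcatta
The replicates of mt-Atp8 in WAT control varied by 20.3% (coefficient of variation, CV), less than the 61.2% that counting alone gives at this depth. For mt-Co1 in the same group the CV was 11.0%, against 0.197% from counting, so counting error was not what limited the abundant genes.

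**Figure D1:**
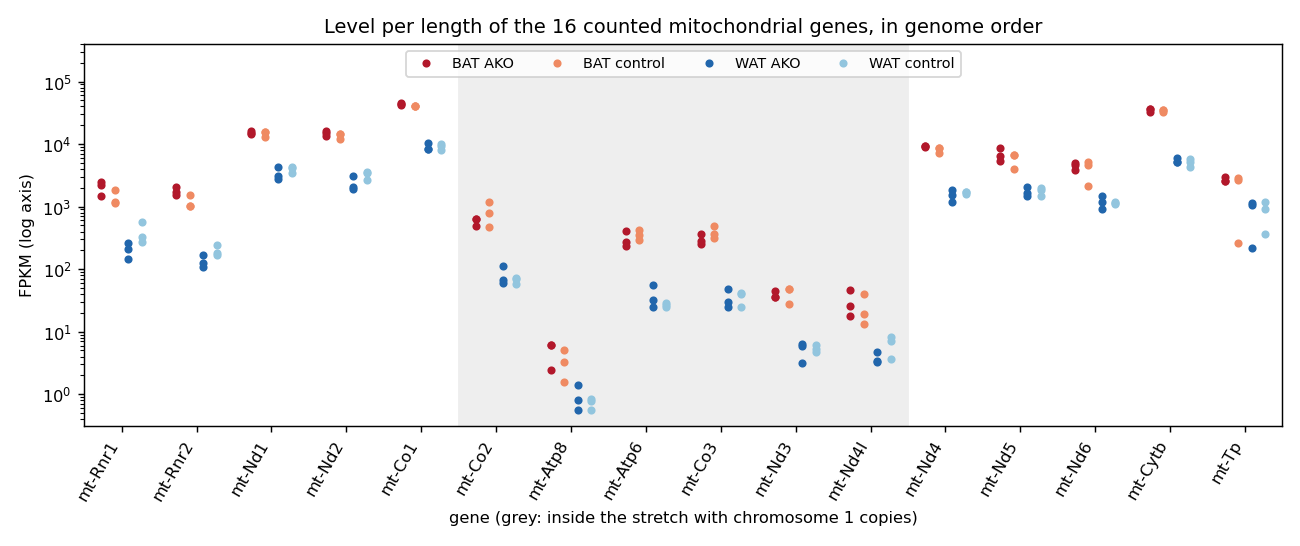
FPKM (log axis) of the 16 mitochondrial genes with counts, in genome order, in BAT AKO, BAT control, WAT AKO and WAT control libraries (1 point per library). The 6 genes inside the stretch copied on chromosome 1 (grey) lie below the 7 other coding genes in every group, and BAT points lie above WAT points for all genes but mt-Tp.

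Mitochondrial genes took a several-fold larger share of the library in brown than in white fat. The 37 genes held 16.2%, 17.6% and 17.8% of counts in the BAT AKO libraries and 16.5%, 14.7% and 16.7% in the BAT control libraries. They held 3.01%, 3.78% and 2.86% in WAT AKO and 3.73%, 2.96% and 3.54% in WAT control. The tissues did not overlap in either genotype. The mean share was 4.68 times higher in BAT than in WAT among controls and 5.35 times among AKO animals (exact two-sided permutation p = 0.1 each, the smallest that 3 against 3 libraries can give). With library sizes scaled by TMM, which corrects for the many counts that few genes take up, the ratios were 5.99 and 7.54. In bulk tissue, fewer cells of a type and less RNA per cell cannot be told apart.

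The AKO groups overlapped their controls in both tissues. In BAT the share averaged 17.2 ± 0.839% in AKO and 15.96 ± 1.06% in controls (SD, n = 3 each; exact permutation p = 0.3). In WAT it averaged 3.22 ± 0.493% in AKO and 3.41 ± 0.397% in controls (exact permutation p = 0.8). The WAT libraries with the highest share, AKO replicate 2 and control replicate 1, were also those with most skeletal muscle counts, 2.40% and 1.35%. The order did not hold among the other controls. WAT control replicate 2, with 0.340% muscle counts, had a share of 2.96%, and WAT control replicate 3, with 0.0198%, had 3.54%. A link between muscle counts and the share was not tested. Without the 3 libraries richest in muscle counts, an alternative chosen after seeing the data, AKO minus control was -0.316 percentage points in WAT (exact permutation p = 0.667), against -0.193 with them, and 1.05 points in BAT (exact permutation p = 0.6), against 1.25 with them.

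The make-up of the mitochondrial counts differed less than their total. Coding genes made up 96.7% to 98.2% of them in BAT libraries and 97.2% to 98.9% in WAT libraries, and mt-Co1 alone 38.0% to 42.7% and 40.8% to 45.3%. mt-Cytb took a larger part in brown fat: 23.3% to 23.4% in BAT AKO and 23.8% to 25.7% in BAT control, against 18.3% to 20.4% in WAT AKO and 16.7% to 17.5% in WAT control, with no overlap between tissues. mt-Nd5 went the other way, with 5.98% to 8.79% in BAT AKO and 4.93% to 7.41% in BAT control, against 9.39% to 10.2% in WAT AKO and 9.15% to 9.56% in WAT control. These parts are descriptions and were not tested.

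**Figure D2:**
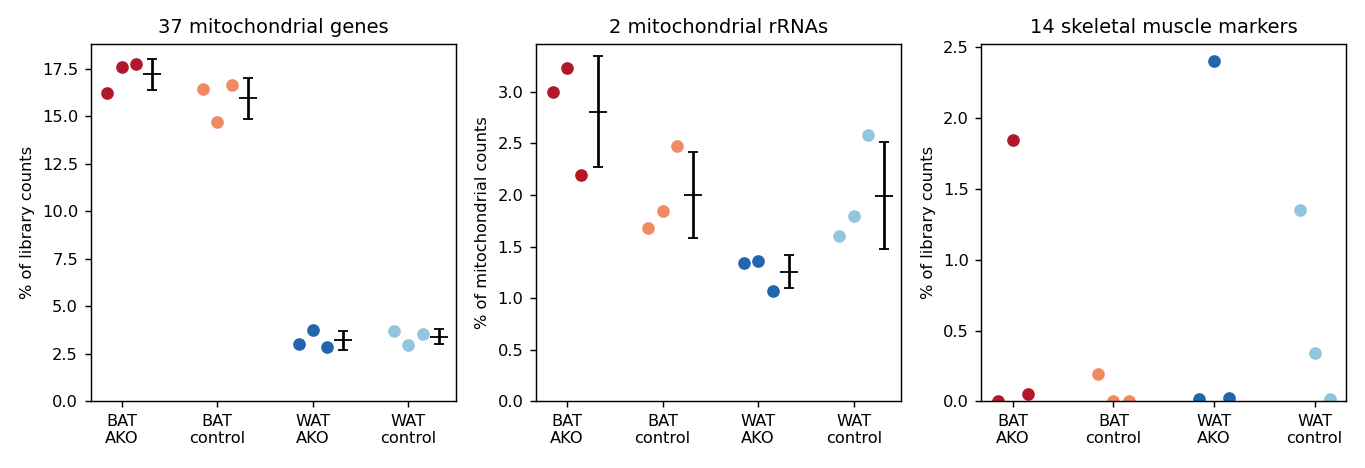
Left, percent of each library's counts on the 37 mitochondrial genes; middle, percent of the mitochondrial counts on the 2 rRNAs; right, percent of library counts on 14 skeletal muscle markers. Points are libraries, and black bars in the left and middle panels are mean ± SD (n = 3). BAT libraries lie between 14.7% and 17.8% in the left panel and WAT libraries between 2.86% and 3.78%.

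Gene by gene, nearly every mitochondrial transcript that could be tested was higher in brown fat. Between the control groups, 15 of the 37 genes passed the filter on low counts and 14 were higher in BAT by edgeR's quasi-likelihood test with Benjamini-Hochberg adjustment over all 15031 genes, of which 24.4% were called higher and 50.1% in either direction. Between the AKO groups 15 of 15 were higher, against 28.8% of all 15671 genes called higher and 59.3% in either direction. The median log2 fold change of the tested members was 2.50 in controls and 3.26 in AKO animals, beside -0.04 and -0.02 over all genes tested. The filter left out the 21 uncounted tRNAs and mt-Atp8.

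In complex IV, mt-Co1 was at 72811 ± 864 CPM in BAT control against 12763 ± 2138 CPM in WAT control (SD, n = 3 each), a rise of 2.50 on the log2 scale (SE 0.181, adjusted p = 9.68e-05). mt-Co2 and mt-Co3 rose by 3.96 (SE 0.365) and 3.80 (SE 0.287). mt-Cytb of complex III was at 45502 ± 2260 CPM in BAT control and 5242 ± 1011 CPM in WAT control, a rise of 3.11 (SE 0.196, adjusted p = 6.38e-05). Among the complex I genes, mt-Nd1, which borders the quinone site, rose by 2.26 (SE 0.186), mt-Nd2 by 2.44 (SE 0.213), mt-Nd4 by 2.64 (SE 0.162), mt-Nd5 by 2.07 (SE 0.263) and mt-Nd6 by 2.19 (SE 0.339). mt-Nd3 rose by 3.29 (SE 0.275) and mt-Nd4l by 2.28 (SE 0.522). mt-Atp6 of complex V had the largest rise among the members, 4.10 (SE 0.166), a 17.2-fold difference.

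The 5 tested genes inside the copied stretch had a median log2 fold change of 3.80 in controls, against 2.44 for the 7 other coding genes. The 7 chromosome 1 copies themselves, all called higher in BAT, had a median of 3.90 and reached 5.07 for Gm28661. In AKO animals the same medians were 3.52, 2.87 and 4.57. Whether reads of the copies shaped the larger rises inside the stretch was not tested.

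The rRNAs rose as well. mt-Rnr1, the RNA of the small mitochondrial ribosomal subunit, rose by 2.19 in controls (SE 0.324, adjusted p = 0.00172) and by 3.91 in AKO animals (SE 0.328, adjusted p = 5.27e-05). mt-Rnr2, of the large subunit, rose by 2.95 (SE 0.230, adjusted p = 0.000123) in controls and by 4.29 (SE 0.260, adjusted p = 1.36e-05) in AKO animals, there a 19.5-fold difference, the largest among the members. The control and AKO tissue comparisons share no library, and the difference between them is tested below for each gene.

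mt-Tp was the exception among controls. It was at 223, 19.9 and 204 CPM in the BAT control libraries, against 23.3, 67.4 and 54.1 CPM in WAT control, so the tissues overlapped. BAT control replicate 2 held 283 counts of mt-Tp where the 5 other BAT libraries held 2777 to 3235. Its log2 fold change was 1.61 (SE 0.818, adjusted p = 0.142) and became 2.14 without that library (adjusted p = 0.0116). In AKO animals mt-Tp rose by 2.26 (SE 0.561, adjusted p = 0.00985).

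**Figure D3:**
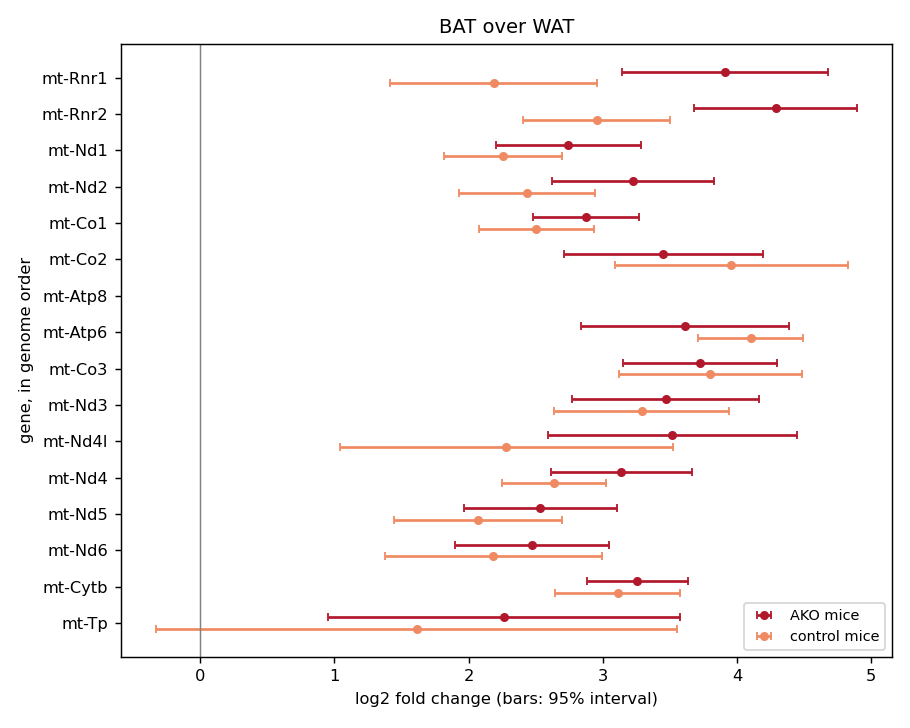
Log2 fold change of BAT over WAT with its 95% interval for each tested mitochondrial gene, in AKO mice (dark) and control mice (light). All points lie to the right of 0 and 1 interval, that of mt-Tp in controls, crosses it.

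For AKO against control in brown fat, no mitochondrial transcript passed the threshold. In BAT, 16 of the 37 genes were tested and 0 were called by edgeR, where 0.0771% of all 14265 genes were called. An unadjusted p under 0.05 was seen for 3 members and for 13.6% of all genes. DESeq2 called 1 member, beside 280 of all genes tested. Of the 16, 12 had a positive log2 fold change, and their median was 0.18 beside 0.01 over all genes tested. mt-Rnr2 was at 3154, 3882 and 2905 CPM in BAT AKO, against 1910, 1869 and 2741 CPM in BAT control. Every AKO library was above every control; the log2 fold change was 0.63 (SE 0.186, adjusted p = 0.281). DESeq2 gave this gene an adjusted p of 0.0347, and over all 13 alternatives it ran from 0.0347 to 0.503.

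mt-Rnr1 was at 2489, 2846 and 1687 CPM in BAT AKO and at 1332, 1241 and 1993 CPM in BAT control, and the groups overlapped. Its log2 fold change was 0.64 (SE 0.248, adjusted p = 0.344). The coding genes differed less. mt-Co1 was at 76741 to 84305 CPM in BAT AKO and 71827 to 73445 CPM in BAT control, without overlap, and the log2 difference was 0.17 (SE 0.0602, adjusted p = 0.331). mt-Nd4 did not overlap either (0.20, SE 0.0903, adjusted p = 0.382); 8.19% of all genes tested lay without overlap in that direction. For mt-Cytb the log2 fold change was 0.07 with a 95% interval of -0.09 to 0.24. Other intervals were wider, such as -1.14 to 0.33 for mt-Co2 inside the copied stretch and -0.54 to 0.94 for mt-Nd6 outside it.

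In white fat the estimates leaned the other way, again with no call. Of 15 genes tested, 0 were called by edgeR, where 0.0189% of all 15915 genes were called. An unadjusted p under 0.05 was seen for 2 members and for 22.6% of all genes. DESeq2 called 1 member, beside 1679 of all genes tested. The log2 fold change was negative for 13 of the 15 and the median was -0.20, beside 0.00 over all genes tested. mt-Rnr1 was at 160, 219 and 109 CPM in WAT AKO, against 299, 222 and 476 CPM in WAT control. Every AKO library was below every control, as were 14.5% of all genes tested, and its log2 fold change was -1.05 (SE 0.364, adjusted p = 0.174). DESeq2 gave an adjusted p of 0.0301, within a range of 0.0301 to 0.418 over 14 alternatives.

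mt-Rnr2 was at 161, 235 and 137 CPM in WAT AKO, against 270, 228 and 340 CPM in WAT control. The groups overlapped, and the log2 difference was -0.67 (SE 0.254, adjusted p = 0.195). Of the coding genes, mt-Nd4l (-0.89, SE 0.401, adjusted p = 0.247) and mt-Nd2 (-0.61, SE 0.299, adjusted p = 0.276) had the lowest values and mt-Atp6 the highest (0.36, SE 0.264, adjusted p = 0.433). mt-Co1 had a log2 fold change of -0.17 with an interval of -0.75 to 0.41, and mt-Cytb -0.04 with an interval of -0.59 to 0.51. The direction for mt-Co2, mt-Atp6, mt-Nd3, mt-Nd6, mt-Cytb and mt-Tp turned when single WAT libraries were left out. Adipocyte markers took 2.01% to 2.22% of counts in WAT AKO and 2.34% to 2.55% in WAT control, without overlap, and all 5 had negative log2 fold changes (median -0.35, none called). B lymphocyte markers, all 8 with positive log2 fold changes and none called, took 0.0530% to 0.139% of the counts of WAT AKO libraries. Among WAT controls they took 0.0437% in replicate 2 and 0.000343% and 0.000350% in the others. Their part in these differences was not tested.

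**Figure D4:**
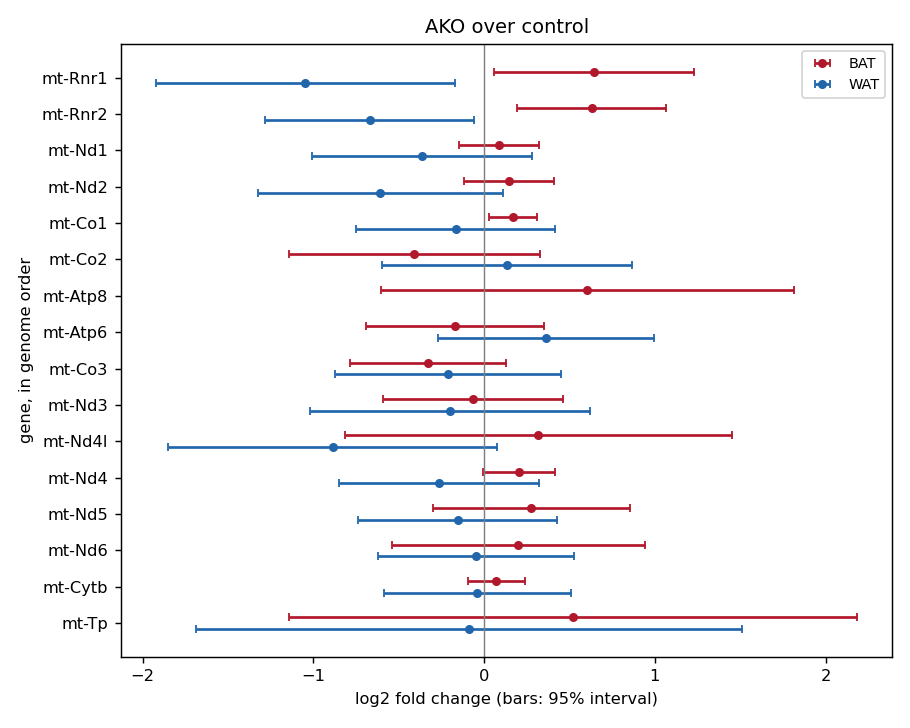
Log2 fold change of AKO over control with its 95% interval for each tested mitochondrial gene in BAT (red) and WAT (blue). The widest separation between the tissues is at mt-Rnr1, 0.64 in BAT and -1.05 in WAT.

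The difference of the AKO effects between the tissues was tested in 1 fit of all 12 libraries. Of 16 mitochondrial genes, 0 were called by edgeR, where 0.275% of all 16391 genes were called. An unadjusted p under 0.05 was seen for 2 members and for 18.4% of all genes. DESeq2 called 2 members, beside 973 of all genes tested. Both members called by DESeq2 were rRNAs. The AKO effect was higher in BAT than in WAT by 1.65 log2 units for mt-Rnr1 (SE 0.470, adjusted p = 0.124) and by 1.26 for mt-Rnr2 (SE 0.331, adjusted p = 0.108). DESeq2 gave adjusted p-values of 0.00808 and 0.00496. Without WAT control replicate 2, edgeR called both, with adjusted p-values of 0.0407 and 0.0415. In that fit it called 923 of all genes tested, against 45 with all 12 libraries. Over the 19 alternatives the adjusted p ran from 0.00808 to 0.271 for mt-Rnr1 and from 0.00496 to 0.244 for mt-Rnr2. For mt-Co1 the difference was 0.29 with an interval of -0.19 to 0.78, and for mt-Cytb 0.07 with an interval of -0.42 to 0.56.

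As parts of the mitochondrial counts, the 2 rRNAs together made up 3.00%, 3.23% and 2.197% in BAT AKO and 1.68%, 1.85% and 2.47% in BAT control. They made up 1.34%, 1.36% and 1.07% in WAT AKO and 1.60%, 1.80% and 2.58% in WAT control. The WAT groups did not overlap in this part, and the BAT groups did. The labels give the molecule as polyA RNA, mature mitochondrial rRNAs carry only short A tails, and ribosome content was not measured.

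**Figure D5:**
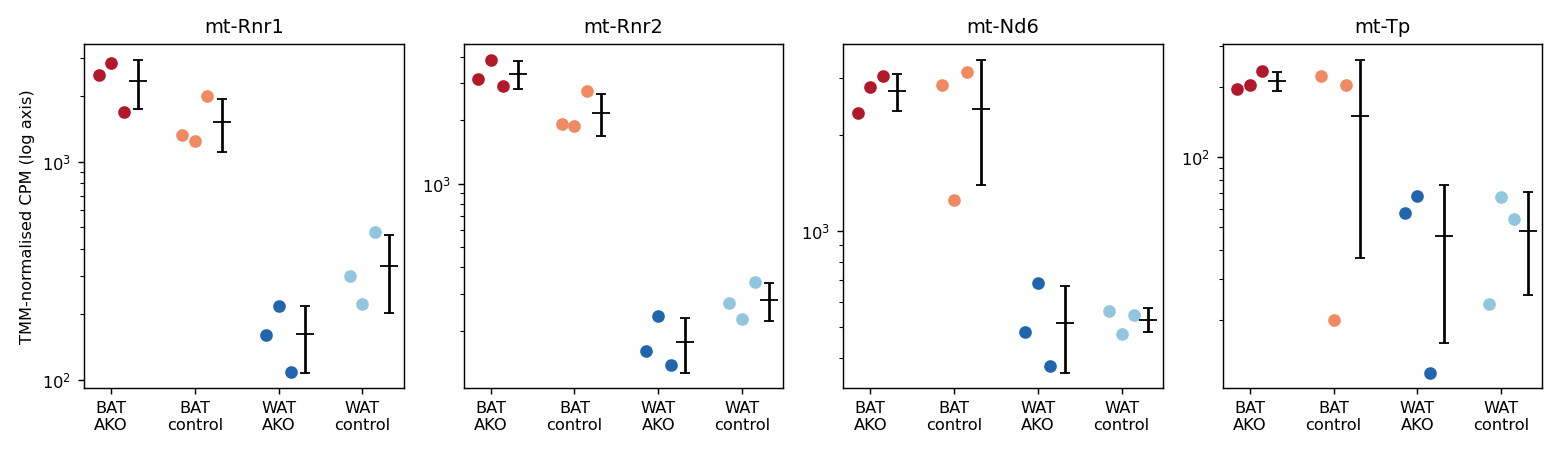
TMM-scaled CPM (log axis) of the 2 rRNAs, of mt-Nd6 and of mt-Tp by library in BAT AKO, BAT control, WAT AKO and WAT control; black bars are mean ± SD (n = 3). BAT control replicate 2 lies far below the other BAT libraries for mt-Tp, at 19.9 CPM, and below them for mt-Nd6.

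The 2 counted genes on the minus strand shared an uneven library. mt-Nd6, the only coding gene on that strand, was at 2341, 2820 and 3039 CPM in BAT AKO and at 2858, 1247 and 3130 CPM in BAT control. The low value is that of BAT control replicate 2, which was also low for mt-Tp. mt-Nd5, the plus-strand neighbour that overlaps mt-Nd6 by 14 bases, was at 14088, 8297 and 14178 CPM in BAT control, lowest in the same library. That library was highest in BAT for the copy Gm28661, with 18144 counts against 6200 to 8378 in the 5 others. In WAT mt-Tp was low in AKO replicate 3, with 259 counts, and in control replicate 1, with 465, against 1072 to 1411 in the other WAT libraries. The strand setting of the counting is not given, so reads of mt-Nd5 and mt-Nd6 from their shared bases cannot be told apart.

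The replicates of mt-Tp therefore spread more than those of any other member in BAT control, with a CV of 75.0% against 2.22% from counting. The CV of mt-Co1 was 3.62% in BAT AKO and 1.19% in BAT control, and that of mt-Cytb 4.76% and 3.85%. mt-Nd4 had the smallest CV of all, 0.874% in BAT AKO, against 10.3% in BAT control. In WAT the CV of mt-Nd6 was 24.8% in AKO and 3.95% in control.

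The nuclear genes that replicate, transcribe, process and translate the mitochondrial genome were also higher in brown fat, with smaller folds. Of 103 listed genes, 101 were tested. Between controls, 77 were called higher in BAT and 0 lower (DESeq2 also called 77 and 0, and 82 of the 101 had an unadjusted p under 0.05 in either direction, as did 56.8% of all genes), with a median log2 fold change of 0.92. Of all genes, 24.4% were called higher there. Between AKO groups, 81 were higher and 3 lower, with a median of 0.82, where 28.8% of all genes were called higher and 59.3% in either direction. Of the transcription genes, Polrmt rose by 1.32 in controls (SE 0.103), the methyltransferase-like factor Tfb2m by 1.32 (SE 0.135) and the DNA-packaging factor Tfam by 0.89 (SE 0.117). Of the RNA processing genes, Fastkd1 rose by 2.58 (SE 0.127), Lrpprc, which keeps mitochondrial mRNAs stable, by 2.12 (SE 0.118), Tbrg4 by 1.86 (SE 0.103) and Elac2, the enzyme that cuts the 3′ ends of tRNAs, by 0.92 (SE 0.0904).

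Set against the same shares of all genes, the translation and membrane insertion factors were the most uniform, with 14 of 14 higher in both genotypes. Among them was the elongation factor Tufm (2.47 in controls, SE 0.135). Of the list of aminoacyl-tRNA synthetases, 20 of 22 genes were higher in controls and 21 in AKO animals, with Aars2 at 1.71 in controls (SE 0.105). Synthetases charge the tRNAs, and the list also holds Qrsl1, Gatb and Gatc, which are not synthetases. The replication and nucleotide genes were the least uniform, with 7 of 15 higher in controls, among them the helicase Twnk (1.80, SE 0.114) and the polymerase Polg (0.71, SE 0.103). Of RNA processing and decay genes 15 of 19 were higher in controls and 17 in AKO animals. In AKO animals Fastk rose by 2.05 (SE 0.0917), Supv3l1, a helicase of mitochondrial RNA decay, by 1.66 (SE 0.0929) and Mterf4 by 1.92 (SE 0.109). The 3 called lower there, named after their values were seen, were the thymidine kinase Tk2 (-0.52, SE 0.0986, adjusted p = 0.00280), the demethylase Alkbh1 (-0.46, SE 0.159, adjusted p = 0.0377) and the primase Primpol (-0.51, SE 0.184, adjusted p = 0.0448). Slirp, the partner of Lrpprc, had at most 1 count in a library and gave no value, and Prorp was not found by its symbol.

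Nuclear subunits of the same respiratory complexes moved on the scale of the mitochondrial genes. Of 34 listed subunits, 31 were higher and 1 lower in BAT in controls, where 24.4% of all genes were called higher, with a median log2 fold change of 2.63. In AKO animals 33 were higher, where 28.8% of all genes were, with a median of 2.68. Uqcrc1 of complex III rose by 3.28 (SE 0.178), Cox5a of complex IV by 3.27 (SE 0.154) and Ndufv1 of complex I by 3.15 (SE 0.149) in controls, values chosen as the highest of the list. The single lower call was Atp5g1, a c-ring subunit of ATP synthase, with -1.66 (SE 0.208, adjusted p = 0.000865).

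Within a tissue the nuclear genes gave 0 calls for AKO against control by edgeR. In BAT, 5 of the 101 expression genes had an unadjusted p under 0.05, a smaller share than the 13.6% of all genes, and DESeq2 called 0. In WAT 18 did, also a smaller share than the 22.6% of all genes, and DESeq2 called 3, beside 1679 of all genes tested. Of the 34 subunits none had an unadjusted p under 0.05 in either tissue, and DESeq2 called 0. Estimates in WAT were positive for 78 of the 101 expression genes, with a median of 0.13, and for 9 of the 34 subunits, with a median of -0.05. In BAT they were positive for 58 of the 101, with a median of 0.03. Over all genes tested, 8031 of 15915 were positive in WAT and 7359 of 14265 in BAT, with medians of 0.00 and 0.01. Twnk and Tfam had the lowest adjusted p in WAT among the 8 genes named in every comparison, with log2 fold changes of 0.37 (SE 0.120, adjusted p = 0.156) and 0.37 (SE 0.116, adjusted p = 0.153).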

How the data were processed

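RNA-seq of polyA RNA from 12 adipose tissue libraries was analysed. The deposited counts are whole reads per Ensembl gene made by the authors, without normalisation. Per the submitters' processing notes, Bowtie2 2.2.3, HISAT2 2.1.0 and HTSeq 0.6.0 were used with build mm10; their roles and the annotation, the strand setting and the handling of reads with several matches are not given in these sources. The deposited FPKM are those counts per annotated gene length and library total (largest relative deviation 4.94e-10 over 16 members), and were used to compare levels between genes.

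The sample titles gave each library's group and number. Symbols, coordinates and transcript sequences came from GENCODE M21 (GRCm38): 52403 of 52550 IDs had a symbol and 147 had none. Copies of members were sought among its transcripts with blastn 2.17.0. Genes were tested in R 4.3.3 with edgeR 4.0.16: TMM scaling, filterByExpr (at least 10 counts in enough libraries and 15 in total), quasi-likelihood F-test, and Benjamini-Hochberg adjustment over all genes tested with a threshold of 0.05. The script was tested on simulated counts. Shares were compared by exact permutation tests. CPM use TMM factors over all 12 libraries. Replicates differed by more than sampling noise (chi-square per degree of freedom 16.5 to 83.4), so each counted as 1. Alternatives were other scalings and filters, DESeq2 1.42.0, a replicate block and libraries left out.

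Members, gene lists and tests were chosen with earlier results of these data known. Named genes were all coding genes and rRNAs, tRNAs with counts, 8 nuclear genes in every comparison and the called nuclear expression genes of smallest p, up to 6. Same-numbered BAT and WAT libraries had deviations that correlated at 0.233 to 0.582 in controls and 0.159 to 0.702 in AKO. Different-numbered ones ran from -0.513 to 0.0943 in controls and from -0.694 to 0.474 in AKO, so the ranges overlapped in AKO. That the numbers pair BAT with WAT libraries is therefore an assumption read from the data. Blocking on the number left 14 and 15 members called. The limit of 3 counts behind a 0 reflects counting error alone.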

Additional observations from a re-analysis of the deposited data

How the results depend on the processing

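With single libraries left out, the counts of mitochondrial genes higher in BAT ran from 14 to 15 in controls and from 15 to 16 in AKO animals, and no share difference turned. The share of AKO minus control in WAT ran from -0.475 percentage points without AKO replicate 2 to -0.0172 without AKO replicate 3 (-0.193 with all), and in BAT from 0.643 without control replicate 2 to 1.74 without AKO replicate 1 (1.25 with all). With DESeq2, 1 member was called for AKO in WAT, 1 in BAT and 2 for the difference between tissues. With edgeR and single libraries left out, the count for the difference ran from 0 to 2, against 0 with all libraries. The cause of these changes was not tested. Over all genes, the 3 AKO calls in WAT became 277 without a filter, 1679 with DESeq2, 1030 in 1 fit of all libraries, 0 with the replicate block and 0 without the 3 libraries richest in muscle counts (chosen after seeing the data), and ran from 1 to 1649 with single libraries left out, the highest without control replicate 2. The 11 in BAT became 33 without a filter, 7 with a minimum of 2 CPM, 280 with DESeq2 and 1 with the block, and ran from 0 to 95, the highest without control replicate 2. The 45 for the difference became 132 without a filter, 973 with DESeq2 and 5 without the muscle-rich libraries, and ran from 2 to 923, the highest without WAT control replicate 2.

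Same-numbered AKO and control libraries did not deviate together (correlations -0.519, -0.0739 and 0.2 in WAT and -0.662, -0.317 and 0.152 in BAT), so they were taken to share only a number. Different-numbered ones reached 0.706 in WAT and 0.605 in BAT. The replicate block ties same-numbered AKO and control libraries all the same, so it cannot check the AKO effects or their difference. With it, 0 members were called in each tissue and in the difference.

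Directions that turned were all of genes not called. Without the muscle-rich libraries the log2 fold change in WAT was -0.17 for mt-Co2 and 0.072 for mt-Co3. With single libraries left out, the AKO effect in WAT ran from -0.28 to 0.32 for mt-Co2, from -0.012 to 0.55 for mt-Atp6, from -0.40 to 0.062 for mt-Nd3, from -0.32 to 0.13 for mt-Nd6, from -0.20 to 0.091 for mt-Cytb and from -0.50 to 0.36 for mt-Tp. In BAT it ran from -0.011 to 0.14 for mt-Nd1, from -0.29 to 0.064 for mt-Nd3, from -0.13 to 0.89 for mt-Nd4l and from -0.11 to 0.44 for mt-Nd6. The difference between tissues ran from -0.31 to 0.12 for mt-Co3, from -0.17 to 0.29 for mt-Nd3, from -0.10 to 0.48 for mt-Nd6 and from -0.026 to 0.21 for mt-Cytb. Counting error was as large as or larger than the replicate spread of the share of library counts for mt-Atp8 in both WAT groups, mt-Nd3 in WAT control and mt-Nd4l in WAT AKO.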
